A study of Caenorhabditis elegans with 2 samples.

Results

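The genes examined encode the machinery that tags proteins with ubiquitin and degrades them. They were the protein-coding genes of *Caenorhabditis elegans* whose symbols mark proteasome subunits (*pas*, *pbs*, *rpt*, *rpn*), ubiquitin itself (*ubq*), ubiquitin-activating E1 enzymes (*uba*) and ubiquitin-conjugating E2 enzymes (*ubc*), by name alone. This rule gave 59 of the 19973 protein-coding genes on the nuclear chromosomes: 14 of the proteasome core particle, 19 of its regulatory particle, 24 of E1 and E2 enzymes and 2 ubiquitin genes. LSY-12 belongs to the MYST histone acetyltransferases, and its binding was measured by chromatin immunoprecipitation and sequencing (ChIP-seq) with an antibody against GFP. The single group consisted of whole L3 larvae of both sexes, 43 h after starved L1 larvae were released from synchronization. They were of strain OP568, which carries unc-119(tm4063) III and the integrated transgene wgIs568, which expresses LSY-12 with GFP-FLAG at its C-terminus. There were 2 biological replicates, numbered 3 and 4. Whole animals do not show which cells a region comes from, the promoter that drives the transgene is not given in the sources used here, and untagged control animals were not analysed here.

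In the pathway, an E1 enzyme activates ubiquitin, an E2 enzyme carries it, and with an E3 ligase it is joined to a target protein. The regulatory particle of the proteasome binds the tagged protein, removes the ubiquitin and unfolds the protein with a ring of ATPases. The core particle, a barrel of alpha and beta rings, then cuts it. Proteasome genes are active in nearly all cells. Transcripts of many *C. elegans* genes are joined to a spliced leader, so that an annotated start can lie downstream of where transcription begins.

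A gene was called bound when a summit in the authors' thresholded list of 2095 peaks fell no more than 500 bp from the most 5' start annotated for it. This list was made by the authors with the irreproducible discovery rate procedure from both replicates. Relative signal stands for a region's deposited signal over the median of the 30000 candidate regions in its list. A relative signal of 1 is therefore that of a middle candidate region, and these candidate lists include background.

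LSY-12 summits lay at 17 of the 59 genes (28.8%, exact 95% interval 17.8 to 42.1%), against 5.26% of all protein-coding genes. The bound genes were *rpn-3*, *ubq-2*, *ubc-6*, *ubc-3*, *rpn-11*, *rpn-5*, *rpt-2*, *ubc-25*, *uba-1*, *pbs-1*, *rpt-6*, *pbs-7*, *pas-4*, *rpn-2*, *rpn-9*, *ubc-7* and *ubq-1*, in falling order of relative signal. The regulatory particle had 7 of 19 bound (36.8%, 16.3 to 61.6%), the core particle 3 of 14 (21.4%, 4.66 to 50.8%) and the E1 and E2 enzymes 5 of 24 (20.8%, 7.13 to 42.2%). Both ubiquitin genes were bound. The intervals of the groups overlap widely, and the differences between the groups were not tested. Within the regulatory particle, 4 of the 9 lid subunits, 1 of the 4 non-ATPase base subunits and 2 of the 6 ATPases were bound. In the core particle these were 1 of 7 alpha and 2 of 7 beta subunits, and among the enzymes 1 of 3 E1 and 4 of 21 E2 genes.

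**Figure D1:**
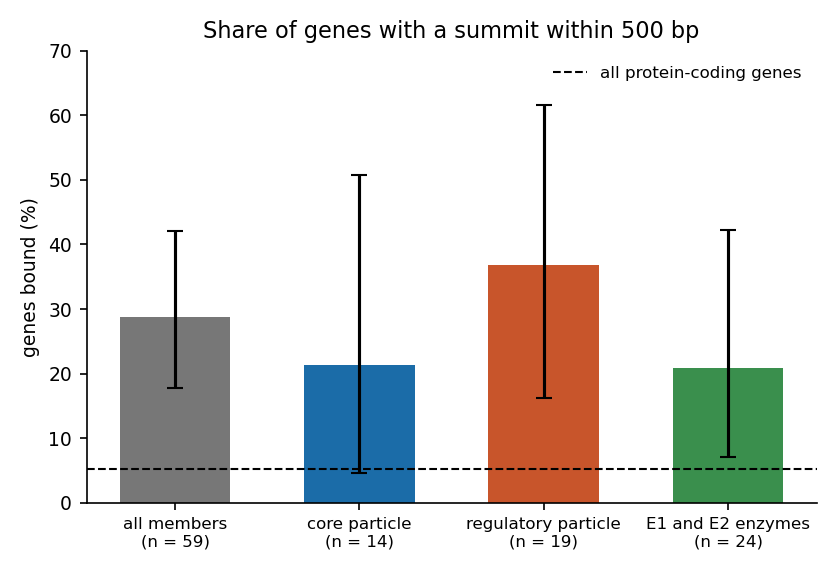
Share of genes bound (%) among all 59 members and in the core particle, regulatory particle and E1 and E2 groups. Bars are shares, error bars are exact 95% intervals that cover counting error only, and the dashed line is the 5.26% of all protein-coding genes; the interval of the core particle includes that line and the others lie above it.

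Sequences around 8 of the 17 summits are shown, chosen by signal, chromosome and annotated exons. Of the 4 members of highest mean signal, 3 hold a run of the same letters, which was noticed only in these sequences. *ubc-3*, *rpt-2* and *ubc-25*, which have a higher signal than some of those shown, are not among the 8, and none of these 3 holds that run at its summit. They are read from WBcel235 (ce11) on the strand of the named gene, 50 bp to either side of the summit where no annotated exon intervened. Capitals mark matches, on either strand, to the motifs searched for (spelled out after the sequences). The genes are in falling order of relative signal, and the coordinates are chrIII:8447114-8447214 for *rpn-3*, chrIII:12978965-12979065 for *ubq-2*, chrII:7478822-7478922 for *ubc-6*, chrII:4044547-4044637 for *rpn-11*, chrII:4698428-4698500 for *rpn-5*, chrIV:9995152-9995252 for *uba-1*, chrIV:1709893-1709993 for *pbs-1* and chrIII:12370174-12370274 for *rpt-6*.
rpn-3: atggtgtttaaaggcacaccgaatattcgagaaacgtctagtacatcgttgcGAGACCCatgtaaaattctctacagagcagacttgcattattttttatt
ubq-2: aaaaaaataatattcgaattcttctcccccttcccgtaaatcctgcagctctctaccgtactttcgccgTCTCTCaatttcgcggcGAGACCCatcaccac
ubc-6: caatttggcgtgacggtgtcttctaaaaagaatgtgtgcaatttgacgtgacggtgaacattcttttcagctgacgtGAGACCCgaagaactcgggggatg
rpn-11: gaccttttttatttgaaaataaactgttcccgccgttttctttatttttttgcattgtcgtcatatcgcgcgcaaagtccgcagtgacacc
rpn-5: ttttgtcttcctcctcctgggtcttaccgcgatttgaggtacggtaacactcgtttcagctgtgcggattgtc
uba-1: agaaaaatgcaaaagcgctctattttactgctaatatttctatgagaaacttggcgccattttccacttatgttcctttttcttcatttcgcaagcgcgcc
pbs-1: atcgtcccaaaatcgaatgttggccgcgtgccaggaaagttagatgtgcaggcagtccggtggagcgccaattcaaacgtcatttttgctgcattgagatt
rpt-6: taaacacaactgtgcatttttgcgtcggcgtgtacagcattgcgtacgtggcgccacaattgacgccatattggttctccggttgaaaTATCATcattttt

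The run GAGACCC lay within 50 bp of the summit at *rpn-3*, *ubq-2* and *ubc-6*, and at none of the other 14 bound members. These 3 were among the 4 of highest mean relative signal, and *ubc-3*, which lacks the run, was the other. The summits of these 3 also lay in the windows of *hsp-110*, *frg-1* and *aka-1*, while that of *ubc-3* lay in no other protein-coding window. The order of *ubc-6* and *ubc-3* is not resolved. *ubc-3* was higher in replicate 3 (3.99 against 3.75) and lower in replicate 4 (5.46 against 5.80). By percentile within the list, *ubc-3* took place 3 and *ubc-6* place 4. A link between the run and signal was not tested. The run was searched on both strands only after these sequences had been seen, and it shares the letters GAGA with the repeat GAGAGA. Among all thresholded peaks in a protein-coding window, 61 of 846 (7.21%) held it in that same span around the summit, and 85 of all 2095 peaks (4.06%) did. In the 300 bp upstream of the start, 5 of the 59 members held it (8.47%, against 2.87% of all protein-coding genes): *rpn-3*, *ubc-6*, *rpn-8*, *pas-5* and *rpn-6.1*, and the last 3 of these were not bound. Of the other motifs, the core of the site of SKN-1, a factor known to drive proteasome genes (TGTCAT or TATCAT, either strand), lay upstream of 18 of 59 members (30.5%, against 31.2% of all genes). It lay around the summits of *rpn-2*, *rpt-2* and *rpt-6*, 3 of 17 (17.6%, against 6.74% of peaks in a protein-coding window and 9.16% of all thresholded peaks). In the same span GAGAGA was found at 1 of 17 summits (5.88%, against 19% of peaks in a protein-coding window), and the E-box CACGTG (4.85% of those peaks) and the DAF-16 element GTAAACA (0.709%) at none. GAGAGA was upstream of 12 members (20.3%, against 21.6%), the DAF-16 element of 3 (5.08%, against 5.01%) and the E-box of 2 (3.39%, against 5.74%). A match describes letters and not binding of a factor. The median GC content of that span was 43.6% at member summits, from 37.6 to 56.4%, and 48% at all peaks in a protein-coding window.

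At the regulatory particle the signal was spread widely, with *rpn-3* far above the other subunits. The lid subunit gene *rpn-3* (chrIII:8447353-8449346) had a relative signal of 8.89 in replicate 3 and 12.4 in replicate 4 (10.6 ± 2.45, SD, n = 2). Its peak ranked 47 of 2095, and its lower replicate exceeded the higher replicate of every other member. The gene *rpn-11*, which encodes the enzyme that removes ubiquitin from the substrate (chrII:4043055-4044546), had 3.39 and 5.20 in replicates 3 and 4 (4.29 ± 1.28). The lid gene *rpn-5* (chrII:4696418-4698427) had 3.07 and 4.14 (3.60 ± 0.757). *rpn-11* was above *rpn-5* in each replicate, a difference that was not tested. Of the ATPases, *rpt-2* (chrV:6016059-6017669) had 2.36 and 3.81 (3.09 ± 1.02) and *rpt-6* (chrIII:12370456-12372607) 2.55 and 2.56 (2.56 ± 0.00503). The scaffold gene *rpn-2* (chrIII:6199184-6202594) had 2.13 and 2.48 (2.30 ± 0.245). The lid gene *rpn-9* (chrII:11237447-11238919) had 2.25 and 2.34 (2.30 ± 0.0670). Apart from *rpn-3*, *rpn-11* and *rpn-5*, the bound subunits of this particle thus lay in a narrow range of means, from 2.30 to 3.09.

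The core particle had 3 bound genes, all with peaks in the lower-signal part of the thresholded list. The alpha subunit gene *pas-4* (chrI:8727218-8728487) had a relative signal of 1.89 in replicate 3 and 2.79 in replicate 4 (2.34 ± 0.636). The beta subunit gene *pbs-7* (chrI:8695205-8696301) had 1.69 and 3.07 (2.38 ± 0.971). The third, *pbs-1*, another beta subunit (chrIV:1708814-1709745), had 2.87 and 2.33 (2.60 ± 0.377). None of the 3 peaks was among the thresholded peaks of above-median signal, in which 4 of the 7 bound regulatory particle genes and 3 of the 5 bound enzyme genes stood. Over all bound members this was 8 of 17 (47.1%), against 611 of 1050 bound genes (58.2%). The median relative signal was 2.69 over the 17 members and 3.14 over all bound genes.

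The only E1 gene bound was *uba-1*, which activates ubiquitin, and the bound E2 genes were *ubc-3*, *ubc-6*, *ubc-7* and *ubc-25*. *ubc-6*, whose homologs act at the endoplasmic reticulum (chrII:7479187-7480713), had a relative signal of 3.75 in replicate 3 and 5.80 in replicate 4 (4.78 ± 1.45). *ubc-3*, the homolog of the cell-cycle E2 enzyme CDC34 (chrI:1698349-1701128), had 3.99 and 5.46 (4.73 ± 1.04). These means differ by less than either SD. *ubc-25* (chrI:10562970-10564903) had 2.70 and 3.08 (2.89 ± 0.269), and *uba-1* (chrIV:9989671-9994945) had 2.69 in each replicate (2.69 ± 0.00641). *ubc-7* (chrIII:9630097-9631167) was lowest, with 1.91 and 2.19 (2.05 ± 0.202). Not bound were *uba-2*, a subunit of the E1 for the modifier SUMO, *uba-5*, the E1 for UFM1, and the E2 genes for SUMO (*ubc-9*) and NEDD8 (*ubc-12*). The E2 gene *ubc-13* and the RAD6 homolog *ubc-1* were not bound either.

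Both ubiquitin genes had a peak, with different geometry. *ubq-2*, which encodes ubiquitin fused to a ribosomal protein (chrIII:12977963-12978523), had 5.54 in replicate 3 and 6.88 in replicate 4 (6.21 ± 0.948). Its summit lay 492 bp upstream of its start, just inside the window, and closer to the neighbour *frg-1*, whose start it preceded by 147 bp. The polyubiquitin gene *ubq-1* (chrIII:5940254-5943841) had 2.38 and 1.61 (1.99 ± 0.547), the lowest mean of the 17. Its summit was the only one downstream of the most 5' start, by 365 bp, within the first intron of the longer transcript and 367 bp upstream of the start of the shorter one. Its peak ranked 2044 of 2095. The replicate regions that overlapped this peak had summits 626 bp (replicate 3) and 452 bp (replicate 4) downstream, the first of them outside the window. The strongest replicate 3 region with its summit inside the window had a relative signal of 2.35.

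**Figure D2:**
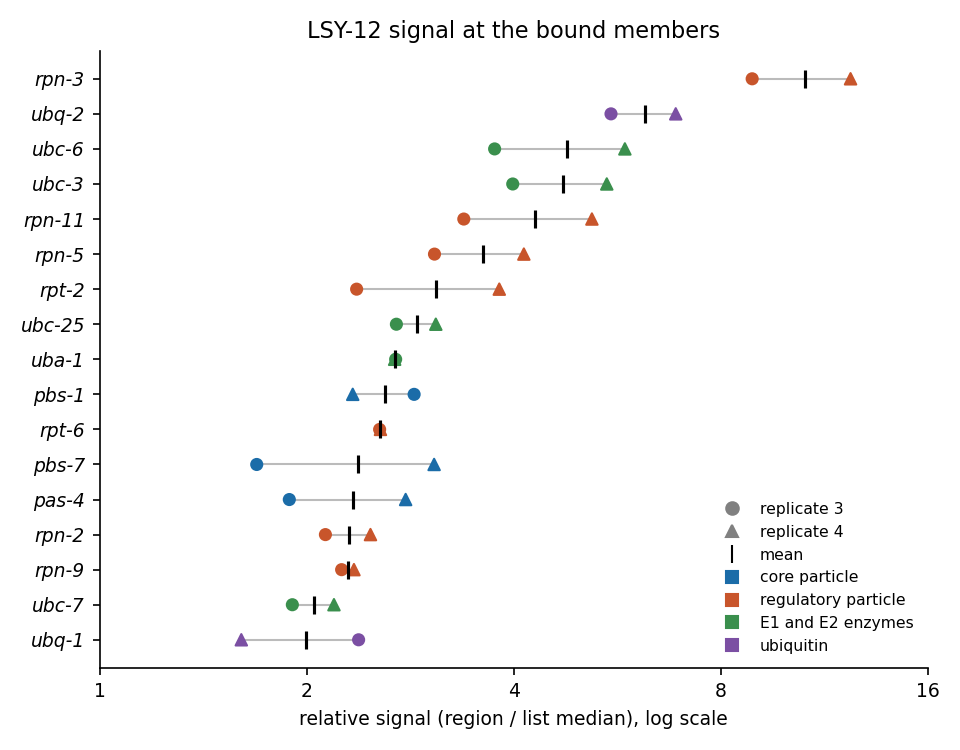
Relative signal (signal of the region divided by the median of its list, log scale) of the 17 bound members in replicate 3 (circles) and replicate 4 (triangles), with the mean as a bar and colour by group. *rpn-3* stands above the rest in both replicates, and replicate 4 lies to the right for 14 of 17 genes.

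The thresholded list was made from both replicates, so a bound gene will mostly rank high in both. For 13 of the 17 bound members (76.5%) the region was among the 2095 strongest of both replicates, beside 797 of all 1050 bound genes (75.9%), which were selected in the same way. The exceptions were *pas-4* (rank 2499), *pbs-7* (rank 3279) and *ubc-7* (rank 2448) in replicate 3 and *ubq-1* (rank 3834) in replicate 4. Relative signal was higher in replicate 4 for 14 of 17 members (82.4%), and for 630 of 1050 bound genes (60.0%). The exceptions among the members were *ubq-1*, *pbs-1* and, by less than 0.01, *uba-1*. A deposited q-value of 0.01 or below was given for 10 of the 17 member peaks (58.8%, against 66.7% of bound genes). Read depth is unknown from these lists, so the precision of 1 region is known only from the spread of the 2 replicates.

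Summits at bound members mostly lay upstream of the start, and those of the enzymes fell in a narrow span in the thresholded list. For 16 of 17 members the summit was upstream, against 909 of 1050 bound genes (86.6%). The median was 232 bp upstream over the members and 185 bp over all bound genes, whose middle values ran from 73.3 to 290.8 bp (quartiles). The 5 enzyme summits lay 257 bp (*uba-1*), 264 bp (*ubc-3*), 288 bp (*ubc-25*), 315 bp (*ubc-6*) and 320 bp (*ubc-7*) upstream. This span, drawn from these 5 values themselves, held 135 (12.9%) of the bound genes. In replicate 3 the same 5 summits ran from -365 bp (*ubc-7*) to -231 bp (*uba-1*), where negative is upstream. In replicate 4 they ran from -321 bp (*ubc-7*) to -263 bp (*uba-1*). In the core particle the summits lay 129 to 198 bp upstream. In the regulatory particle they ran from 23 bp (*rpn-5*) and 41 bp (*rpn-11*) to 349 bp (*rpn-2*) upstream. From a second annotated transcript start, the summit lay 156 bp upstream at *rpn-5* and 257 bp upstream at *rpn-11*. Among the enzymes, other annotated starts put it 1745 bp (*ubc-3*), 537 bp (*ubc-6*) and 279, 297 and 1853 bp (*uba-1*) upstream. The lists state no error of a summit's place, but the summits of the 2 replicates can be compared. In replicates 3 and 4 they lay at -126 and -119 bp at *pbs-7*, where negative is upstream. They lay at -365 and -321 bp at *ubc-7* and at -127 and -182 bp at *pas-4*. The pair furthest apart was that of *ubq-1*, at 626 and 452 bp.

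**Figure D3:**
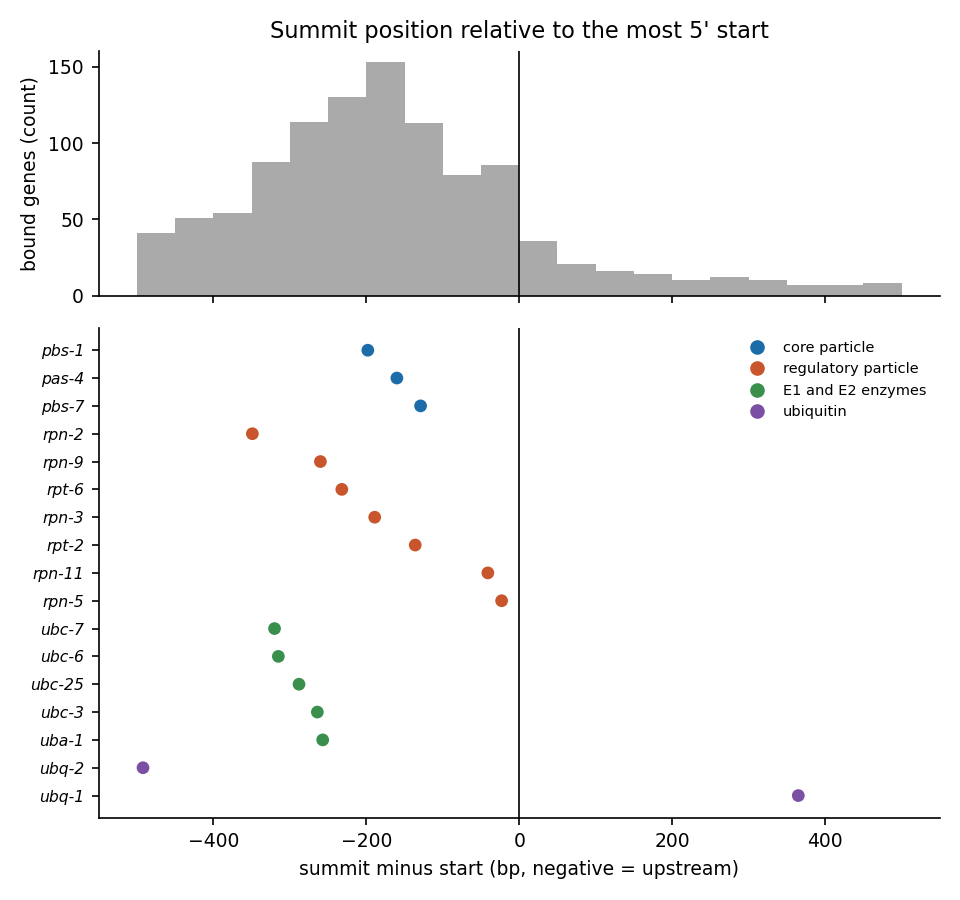
Position of summits relative to the most 5' start (bp, negative is upstream): histogram of all 1050 bound genes (upper plot, count of genes) and the 17 bound members by group (lower plot). The 5 E1 and E2 genes lie between 257 and 320 bp upstream, and *ubq-1* alone lies downstream.

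Most member peaks sat between divergent genes. The summit lay in the window of another protein-coding gene for 10 of the 17 members (58.8%, against 42.0% of bound genes), and in all 10 cases it was upstream of both starts, which point away from each other on opposite strands. Such an arrangement was found for 377 of all 1050 bound genes (35.9%). The partners were *hsp-110*, an Hsp110 chaperone gene (with *rpn-3*), *scc-1*, which encodes a cohesin subunit (*rpn-5*), *aps-1*, an adaptor complex subunit gene (*rpt-2*), *C23G10.7* (*rpn-2*), *T06D8.9* (*rpn-9*), *rpb-3*, an RNA polymerase II subunit gene (*pas-4*), *F39H11.1* (*pbs-7*), *K08D12.3* (*pbs-1*), *aka-1* (*ubc-6*) and *frg-1* (*ubq-2*). The paired starts were 277 bp (*pas-4* and *rpb-3*) to 770 bp (*rpn-2* and *C23G10.7*) apart. The member's start was the nearer one except at *pas-4*, where the summit lay 160 bp from *pas-4* and 117 bp from *rpb-3*, and at *ubq-2*. A peak there cannot be assigned to 1 of the genes from its position. The genes *rpn-11*, *rpt-6*, *uba-1*, *ubc-3*, *ubc-7*, *ubc-25* and *ubq-1* had a summit in no other protein-coding window. A non-coding RNA gene started within 500 bp of the summits of *pas-4*, *rpn-3* and *rpt-2*.

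Members were bound both with and without a close neighbour. Another protein-coding start lay within 500 bp of 19 of the 59 starts (32.2%), against 2239 of 19973 (11.2%). With such a neighbour 5 of 19 members were bound (26.3%), against 14.4% of all genes of that kind. Without one, 12 of 40 were bound, against 4.11%. Starts further apart than this can still share a summit. The summits of *ubc-6*, *pbs-1*, *rpn-2*, *rpn-9* and *ubq-2*, counted here as without a neighbour, also lay in another gene's window. Counting only summits in no other protein-coding window, 7 of the 59 members were bound (11.9%, against 3.05% of all genes). All 5 bound enzyme genes, *ubc-6* included, were among the 17 enzyme genes with no other start within 500 bp. None of the 7 with one was bound (exact upper 95% bound 41.0%, beside 14.4% of all genes of that kind). Another arrangement is a gene of the same strand that ends under 500 bp upstream, as in the operons of *C. elegans*. Of the 15 members placed so, 2 were bound (13.3%, against 4.73% of all such genes), *rpn-11* downstream of *K07D4.2* and *uba-1* downstream of *pyp-1*. Of the 44 others, 15 were bound (34.1%, against 5.37%). For 1 of the 13 members placed so and not bound, *pbs-5*, the first gene of the row (*K05C4.2*) was bound itself, and this was true of 10.3% of all such genes.

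Of the 42 members that were not bound, 14 had a candidate region with its summit in the window in both replicates, 12 in 1 replicate and 16 in neither. With the 17 bound members, 31 of 59 (52.5%) had one in both, against 20.0% of all protein-coding genes. The mean relative signal of the 14 ran from 1.01 to 1.88 with a median of 1.35, and lower values than at bound genes follow from the threshold. The strongest were *uba-2*, with 2.06 in replicate 3 and 1.70 in replicate 4, and *pbs-4*, with 2.04 and 1.36. In replicate 3 these 2 regions ranked 2055 and 2090, just inside the 2095 strongest. The beta subunit genes *pbs-5* (1.27 and 1.82) and *pbs-3* (1.03 and 1.96) and the alpha subunit gene *pas-3* (0.973 and 1.90) were higher in replicate 4. The regulatory particle genes *rpn-8* (1.56 and 0.903) and *rpt-3* (1.57 and 0.836) were higher in replicate 3, and *rpt-1* (0.919 and 1.27) and *rpn-13*, a ubiquitin receptor (0.769 and 1.31), in replicate 4. Among the E2 genes these were *ubc-9* (1.40 and 1.40), *ubc-12* (1.27 and 1.35), *ubc-14* (1.14 and 1.68), *ubc-16* (0.956 and 1.12) and *ubc-8* (1.23 and 0.790). The replicate regions of a gene can differ in place, as at *ubc-14*, where their summits lay on either side of the start.

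**Figure D4:**
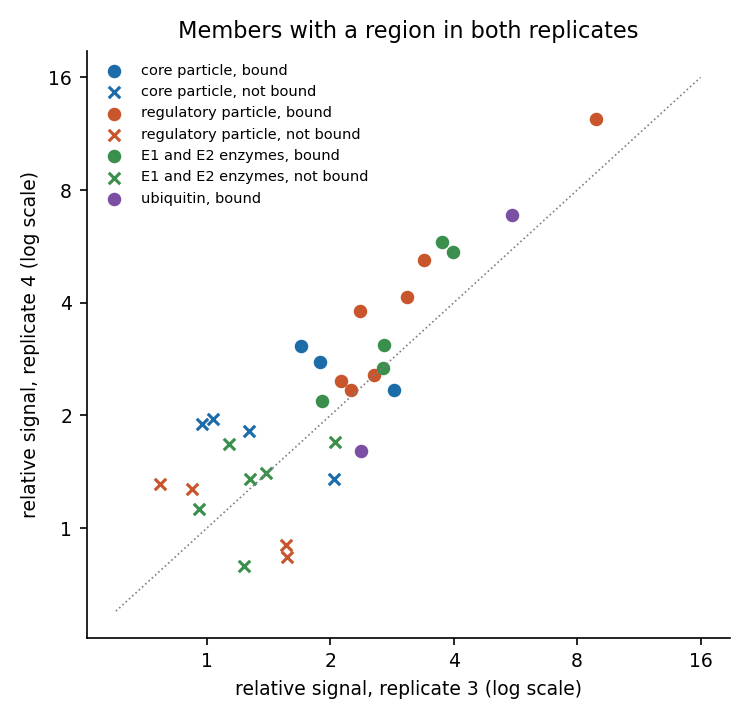
Relative signal in replicate 3 against replicate 4 (both log scale) for the 31 members with a region in both, bound (circles) and not bound (crosses), coloured by group; the dotted line marks equal values. Bound members spread along the line up to *rpn-3*, and those not bound stay near or under 2 in both replicates.

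A candidate region in replicate 3 alone was found at *pas-1*, *pas-7*, *rpn-6.1*, *rpn-7*, *rpn-10* and *ubc-17*, and in replicate 4 alone at *pas-5*, *pbs-2*, *rpn-12*, *uba-5*, *ubc-1* and *ubc-13*, with relative signals from 0.729 to 1.41. No candidate summit of either replicate lay in the windows of *pas-2*, *pas-6*, *pbs-6*, *rpn-1*, *rpn-6.2*, *rpt-4*, *rpt-5*, *ubc-15*, *ubc-18*, *ubc-19*, *ubc-20*, *ubc-21*, *ubc-22*, *ubc-23*, *ubc-24* and *ubc-26*. Of these 16 genes, 9 are E2 genes and 4 encode base or lid subunits. That no candidate summit was listed there does not show that LSY-12 was absent. Only *pas-5* among the 42 had a thresholded summit within 1000 bp, 919 bp upstream of its start and downstream of the bound *ubc-25*.

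By chromosome, the bound members were 6 of 13 on III, 4 of 17 on I, 4 of 11 on II, 2 of 8 on IV and 1 of 6 on V, beside 7.69%, 7.23%, 5.07%, 5.00% and 3.68% of all genes there. None of the 4 members on X (*ubc-17*, *ubc-21*, *ubc-22* and *ubc-23*) was bound, beside 4.25% of all genes on X.

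Other genes of the pathway were put into 5 lists drawn up for this report, and their difference from the members was not tested. Of these 64 genes, 9 were bound (14.1%, 6.64 to 25%), against 5.26% of all protein-coding genes. Every list is small, and its interval is wide. Of genes for regulation of the proteasome and for extraction of tagged proteins, 4 of 13 were bound. They were *cdc-48.1*, the ATPase that pulls tagged proteins out of complexes, *ufd-2*, *ufd-3* and *skn-1*. *cdc-48.1* reached a relative signal of 18.2 in replicate 3 and 25.7 in replicate 4 (22.0 ± 5.33), above every member, and *skn-1* had 2.08 and 2.40 (2.24 ± 0.223). Of the cullins and adaptors 2 of 14 were bound, *cul-4* (2.22 ± 0.0455) and *rbx-1* (2.09 ± 0.677), and of the deubiquitinases 2 of 17, *usp-14*, which acts at the proteasome (1.91 ± 0.218), and *usp-48* (2.12 ± 0.262). Of other conjugation genes only the SUMO gene *smo-1* was bound (2.17 ± 0.263), 1 of 14, and of the COP9 signalosome none of 6 (exact upper 95% bound 45.9%). The conjugation gene *let-70*, which the naming rule does not take in, was not bound. A further listed COP9 gene, *csn-7*, had no match in the annotation and was not counted. Summits of all 9 bound genes but *usp-48* lay in no other protein-coding window.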

How the data were processed

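LSY-12 ChIP-seq peak lists of 2 replicates were analysed. According to descriptions deposited by the authors, each replicate's candidate regions came from its alignment and a second alignment whose role is not stated, and the thresholded list came from both replicates' and the pooled candidates. No aligner or caller is named there. The signal deposited by the authors has no stated scale and was only compared within lists. A −log10 q-value, as deposited, served to count regions, and the deposited summit offset, another column, set positions. Only the ce11 lists were used, with genes of Ensembl release 115 (WBcel235) and the RefSeq genome of that build. Members, lists and tests were chosen with earlier results of these data known. Shares have exact Clopper-Pearson 95% intervals, which cover counting error only. They count genes as independent, although neighbours can share a summit. No test between groups of genes was made, since the members were chosen with results known. Summit assignment was tested on simulated data. Every member was accounted for, and bound ones were described singly. Sequences were shown for up to 8 bound members of highest signal, leaving out chromosome I and summits in annotated exons, those of non-coding genes included (*rpt-2*). Alternatives were other windows, starts, assignment rules, peak thresholds and lists, and each replicate alone. Python 3.11.15, numpy 2.4.6, pandas 2.3.3 and scipy 1.17.1 were used.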

Additional observations from a re-analysis of the deposited data

How the results depend on the processing

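The count of bound members was 17 with any annotated transcript start (5.74% of all genes), 1000 bp upstream to 100 bp downstream (6.23%), overlap of peak and window (6.03%), the strongest pooled regions (5.26%) and the nearest start within 5000 bp (8.05%), and 18 within 1000 bp (7.05%). Some of these exchanged genes. The upstream window lost *ubq-1* and gained *pas-5*, and the nearest start lost *pas-4* and *ubq-2* and gained *pas-5* and *ubc-8*. Any annotated start, overlap and 1000 bp contain the main window, so they could only add genes. Bound members had the same ranks in the pooled and thresholded lists, so the strongest pooled regions repeat the main call and are no separate check. Within 250 bp, 8 members were bound and 0 of the enzyme genes (3.32% of all genes). With peaks of above-median signal there were 8 in all, 0 of the core particle, 4 of the regulatory particle and 3 of the enzymes (3.06% of all genes). Counting only summits in no other protein-coding window, chosen after the data were seen, left 7 in all, 0 of the core particle and 2 of the regulatory particle (3.05% of all genes). With the first start of a row of same-strand genes, also chosen then, 16 were bound (6.33% of all genes). This setting lost *rpn-11* and *uba-1* and gained *pbs-5*, so 15 of these were bound in the main call too. Each replicate alone, by its 2095 strongest regions, gave 16 members. Replicate 4 alone (5.18% of all genes) lost *ubq-1*. Replicate 3 alone (4.94% of all genes) lost *pas-4*, *pbs-7* and *ubc-7* and gained *pbs-4* and *uba-2*. Without depth, regions near the threshold are the least certain. No paired analysis was possible because there is only 1 group.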
